A study of Ictalurus furcatus with 16 samples.

Results

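Kinesins, the motor proteins that travel along microtubules, and tubulins, the proteins that microtubules are built from, were examined in the testis of the blue catfish, Ictalurus furcatus, a large river fish. Members were taken by gene symbol: kif followed by a digit, or a symbol starting with tuba, tubb, tubd, tube or tubg. A symbol was kept where 10 or more fragments were counted in 4 or more of the 16 libraries. Of 53 such symbols among 26356 in the tables, 35 were kept. These were 20 kinesin genes, 3 alpha tubulins, 7 beta tubulins, and 5 genes of gamma tubulin and its complex. Testis RNA came from 4 fish at each of ages 2, 4, 7 and 9, for which the labels state no unit, and the series uses age 2 as its control. The labels call the libraries biological replicates and name no strain or treatment, so the groups differ by age alone as far as the labels go.

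Microtubules are hollow filaments of paired alpha and beta tubulin. They form the mitotic and meiotic spindle, the axoneme of the sperm tail, and the tracks on which cargo moves. Gamma tubulin, held in a ring by the gamma-tubulin complex proteins, starts new microtubules at the centrosome. Kinesins use ATP to move along these filaments. Some slide or shorten spindle microtubules, some carry material into cilia and flagella, and others haul vesicles and organelles through the cell. A testis that makes sperm needs all of these: spindles in dividing germ cells, and an axoneme in every sperm.

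Between 5136717 and 8081160 fragments per library were assigned to a transcript. One age 2 testis stood apart from the rest of its age. On principal component 1 of the most variable genes, age 2 replicate 1 scored -8.97, within the older range of -29.6 to 7.01, and age 2 replicates 2 to 4 scored 56.0 to 77.9. Markers of the testis were present. Summed levels of 13 spermatid and sperm genes ran from 552 to 3847 CPM in the 12 older libraries, from 62.7 to 109.7 CPM in age 2 replicates 2 to 4, and reached 1878 CPM in age 2 replicate 1. The list held 18 genes, of which these 13 were in the tables, with ropn1l at 0 in all libraries. Much of the sum was cfap52 and rsph9, at 887 and 760 CPM in age 2 replicate 1. In tekt1, tekt2, spag17 and rsph1, age 2 replicates 2 to 4 overlapped the older libraries, and in the other genes with counts they lay below them. CPM stands for counts scaled to a common total of assigned fragments, here with library sizes scaled by edgeR's TMM method. Among 9 Sertoli cell genes in the tables, dmrt1, wt1a and wt1b were listed at 0 in all libraries. The summed Sertoli level was 2774 to 7692 CPM in age 2 replicates 2 to 4, 379.6 CPM in replicate 1 and 504 to 1693 CPM in the older libraries. Much of that sum in age 2 replicates 2 to 4 was gsdf, at 1934 to 6708 CPM, with 95.9 to 511 CPM in the older libraries. In sox9a and inha, replicates 2 to 4 also lay above the older libraries, and in amh, fshr and cldn11a they overlapped them. The counts are therefore given with and without age 2 replicate 1, and so are the members whose call changes without it. That library was picked out from these same counts, and leaving it out also lowers the spread in genes where it stood apart. Adjusted p-values without it are therefore not a fair test, and are given only to show how far the calls hinge on it.

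Which family members could be measured depended on how many transcripts a gene had. Counts are given per transcript, and all 27 kinesin and tubulin symbols with 1 transcript were kept, against 8 of the 26 with several. Over all symbols the count rule kept 73.8% of those with 1 transcript and 40.1% of those with several. Between 22.8% and 29.4% of the fragments of a library were set aside as ambiguous, a class that includes fragments shared by transcripts of a gene. The 18 symbols left out all had several transcripts, and 7 of them were listed at 0 in every library: kif13a, kif20bb, kif23, kif26ab, kif7, kif9 and tubd1. A 0 there does not show that the gene was silent. It also leaves kif11 (3 fragments in all), a main motor of spindle poles, and kif3a (9 fragments), the usual partner of kif3b in cilia, outside what can be described. Levels are compared between libraries and not between genes, since no transcript length was used. Just inside the rule lay tubb2, kif5c and kif5bb, with 10 or more fragments in 4, 6 and 7 libraries. Just outside lay kif22 and tubgcp2, with 3 and 2 such libraries.

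Against age 2, the kinesin genes kif26aa, kif26ba, kif26bb, kif5aa, kif5ab and kif5c and the beta tubulin tubb2 were lower at ages 4, 7 and 9. The selection rule bears on the falls of tubb2 and kif5c, which reached 10 fragments in few libraries outside age 2. None of the 5 spindle kinesins passed the test. At age 4, 11 of the 35 members passed (1 higher, 10 lower), or 31.4%, against 18.6% of the 15979 genes tested. At age 7 it was also 11 (1 higher, 10 lower), against 27.3% of all genes. At age 9, 9 passed (0 higher, 9 lower), or 25.7%, against 18.4% of all genes. Of all genes, 12.0%, 15.9% and 11.5% were lower at ages 4, 7 and 9, and 6.66%, 11.5% and 6.82% higher. The median log2 fold change of the members was -0.13, -0.32 and -0.29, and that of all genes was -0.05, -0.08 and -0.03. These 3 comparisons share the age 2 libraries. Since these are whole testes, fewer cells of a type and less RNA per cell cannot be told apart.

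**Figure D1:**
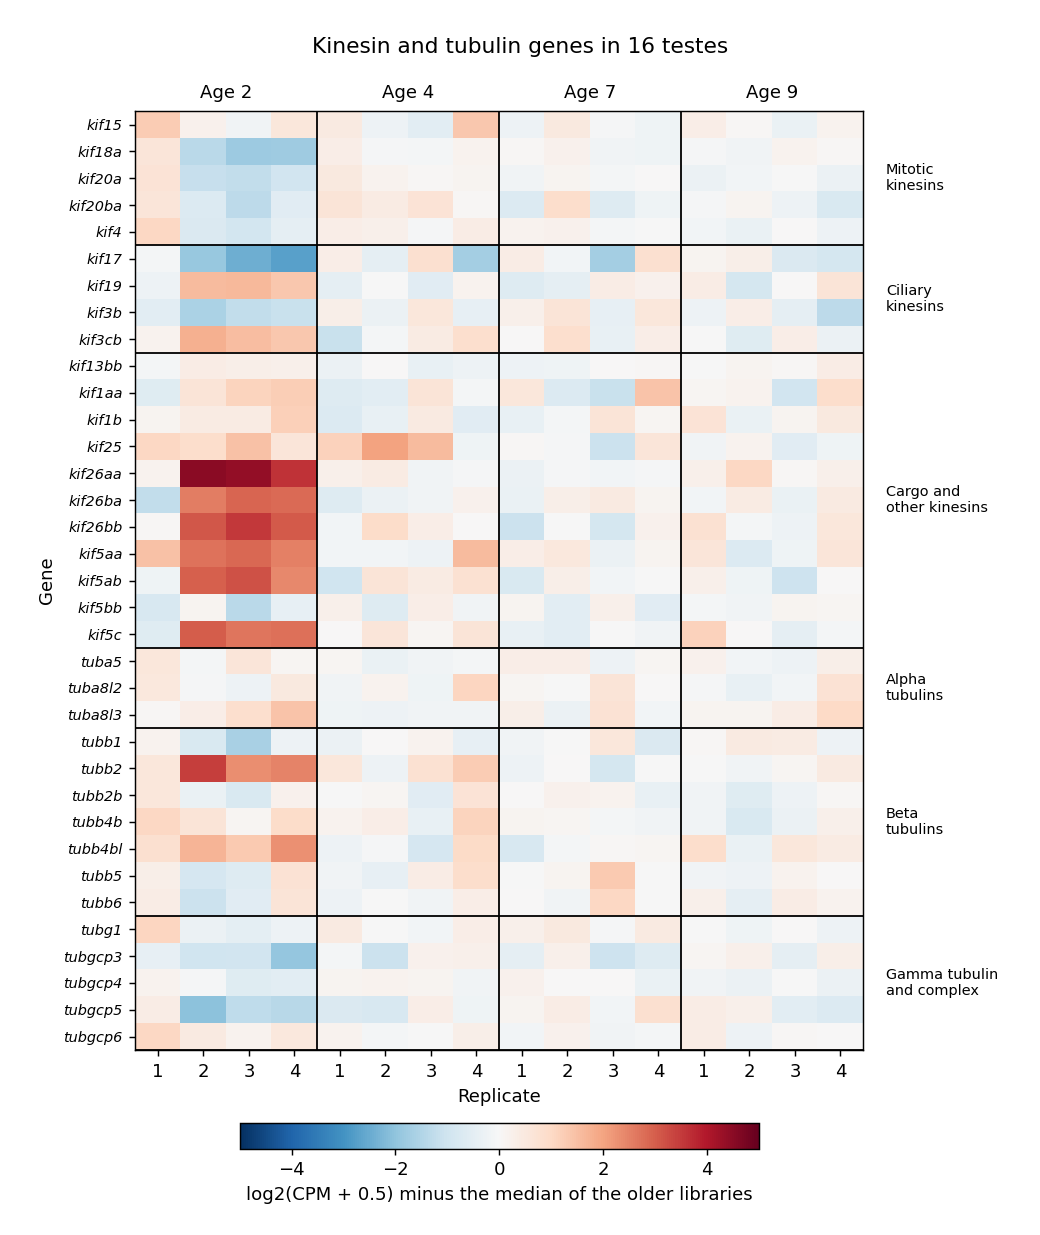
Level of each of the 35 members (rows, by role) in each of the 16 libraries (columns, by age and replicate), as log2(CPM + 0.5) minus the median of the 12 older libraries. Red is higher and blue lower. Age 2 replicates 2 to 4 are deep red in the kif26, kif5aa, kif5ab and kif5c rows and blue in kif18a, kif17 and kif20a. Age 2 replicate 1 looks like the older libraries in most of these rows.

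These counts depended on single libraries, of age 2 and of the older ages as well. At age 7 the kif19 call was lost on omitting age 7 replicate 1, 2 or 4. At age 9 the kif3cb call was lost on omitting any age 9 library. In 10 of the 35 members, age 2 replicates 2 to 4 all lay above all 12 older libraries, and in 6 all below, against 17.3% and 16.2% of all genes. Age 2 replicate 1 lay within the older range in 26 members, above it in 6 and below it in 3, and 76.6% of all genes had it within that range. In 0 members did all 4 age 2 libraries lie on one side of the 12 older ones (1.73% above and 1.46% below over all genes). Without age 2 replicate 1, 23 members passed at age 4 (10 higher, 13 lower), 18 at age 7 (8 higher, 10 lower) and 19 at age 9 (8 higher, 11 lower), against 45.7%, 47.8% and 42.3% of all genes. All calls made with 16 libraries were also made in that fit, except tubgcp6 at age 7 and tubb4b at age 9. In that fit 23.3%, 24.2% and 21.7% of all genes were higher and 22.3%, 23.6% and 20.6% lower. Unlike that omission, others lowered the age 4 count: to 1 on omitting replicate 3 of age 2, and to 3 on omitting its replicate 2 or its replicate 4. Omitting an age 4 library gave 3 (replicate 1), 6 (replicate 2) and 0 (replicate 3). On omitting age 4 replicate 4, only tuba8l3 lost its call among the members called with 16 libraries. The share of all genes called under these omissions is not given here, so the drops are not a result about the members. Few members had groups without overlap. At age 4 these were kif3b, above all age 2 libraries (4.94% of all genes were), and tuba8l3, below them (4.47%). At age 7 they were kif3b above (6.73%) and kif26aa, tubb2, kif5aa, tubb4bl and kif25 below (8.37%). At age 9, 0 lay above (7.12%), and kif5aa, tubb2 and kif25 below (7.93%).

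**Figure D2:**
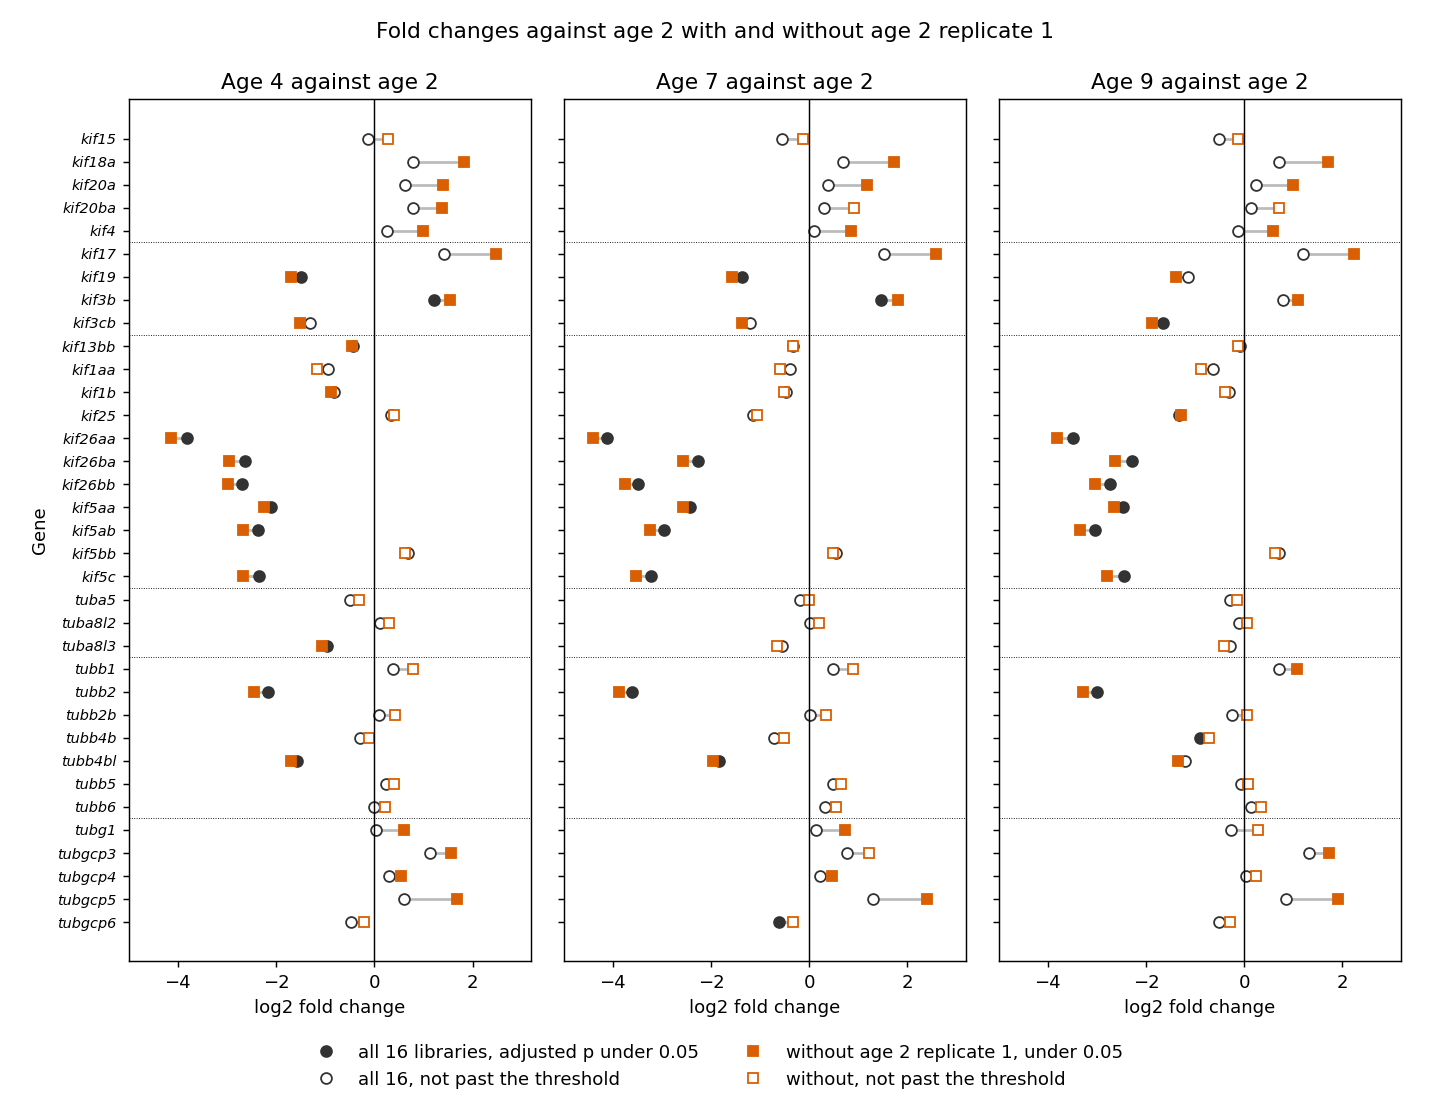
Log2 fold change of each member at ages 4, 7 and 9 against age 2, with all 16 libraries (circles) and without age 2 replicate 1 (squares). Filled symbols have an adjusted p under 0.05. Leaving out that library moves the kif26 and kif5 genes slightly further left, and moves kif18a, kif20a, kif4, kif17 and tubgcp5 to the right, past the threshold.

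The 3 kif26 genes fell at all 3 older ages, and kif26aa had the largest fall of the 35 members at each. Kif26 proteins are atypical kinesins that bind microtubules without using ATP to walk, and in mice Kif26a restrains growth factor signalling in gut neurons. The level of kif26aa (NCBI gene 128601049) was 5.93 CPM in age 2 replicate 1 and 129, 120.2 and 69.7 CPM in age 2 replicates 2 to 4. In replicates 1 to 4 it was 6.29, 7.01, 4.57 and 5.01 CPM at age 4, 4.17, 4.89, 4.63 and 5.01 CPM at age 7, and 6.33, 11.2, 5.37 and 6.20 CPM at age 9. Thus 3 of the age 2 testes were far above every older library, and the other lay among them. The log2 fold change was -3.82 ± 0.61 (SE) at age 4, -4.11 ± 0.62 at age 7 and -3.48 ± 0.60 at age 9 (adjusted p = 0.0121, 0.00479 and 0.00337, edgeR quasi-likelihood). With age 2 replicate 1 left out it was -4.13, -4.41 and -3.82.

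The paralogue kif26ba (128612927) had the same shape, at 4.81 CPM in age 2 replicate 1 and 72.7, 93.1 and 87.8 CPM in replicates 2 to 4. The older libraries ran from 7.39 to 16.7 CPM, so that age 2 replicate 1 was the lowest of all 16. Its log2 fold changes were -2.64 ± 0.57, -2.26 ± 0.56 and -2.29 ± 0.56 (adjusted p = 0.0153, 0.0117 and 0.0144). For kif26bb (128601599), age 2 gave 3.21 CPM in replicate 1 and 29.5, 40.4 and 29.3 CPM in the others, and the older libraries 1.17 to 6.12 CPM. It fell by 2.69 ± 0.59, 3.48 ± 0.62 and 2.73 ± 0.59 on the log2 scale (adjusted p = 0.0153, 0.00513 and 0.00864).

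**Figure D3:**
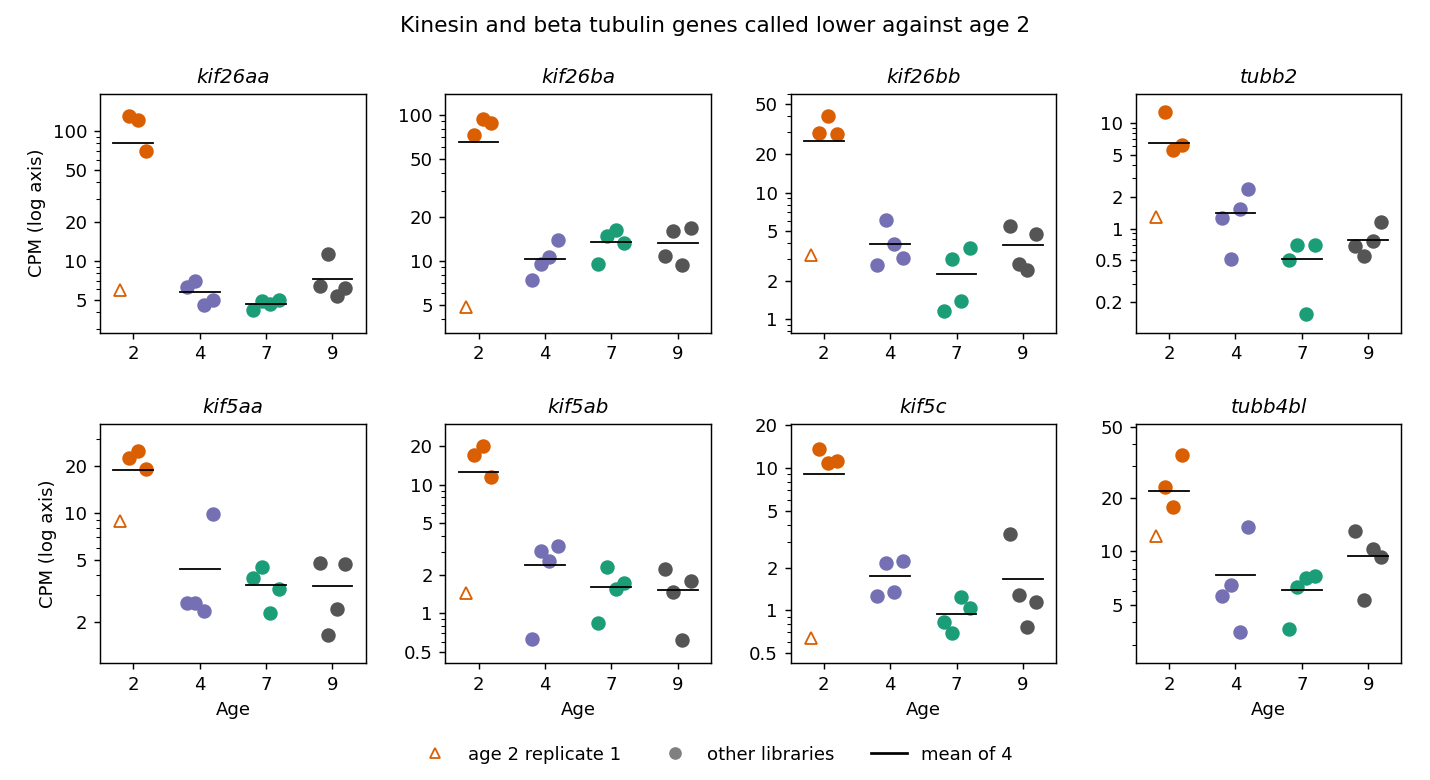
CPM on a log axis in each library, by age, for kif26aa, kif26ba, kif26bb, tubb2, kif5aa, kif5ab, kif5c and tubb4bl. Points are libraries, the open triangle is age 2 replicate 1 and bars are means of 4. Age 2 replicates 2 to 4 lie above all older libraries in each panel, and the triangle lies lower, near the older points.

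Of the conventional kinesin heavy chains, which carry vesicles and mitochondria outward from the cell centre, kif5aa, kif5ab and kif5c fell at each older age and kif5bb did not pass. In mammals Kif5a and Kif5c are mainly neuronal and Kif5b is widespread. At age 2, kif5aa (128607677) stood at 8.98 CPM in replicate 1 and at 22.5, 24.9 and 19.2 CPM in replicates 2 to 4. In replicates 1 to 4 it was 2.67, 2.68, 2.37 and 9.89 CPM at age 4, 3.84, 4.54, 2.31 and 3.28 CPM at age 7, and 4.79, 1.65, 2.45 and 4.73 CPM at age 9. All 4 age 2 libraries lay above those of ages 7 and 9, and age 4 replicate 4 alone reached into the age 2 range. The log2 fold change was -2.09 ± 0.50 at age 4, -2.43 ± 0.51 at age 7 and -2.47 ± 0.51 at age 9 (adjusted p = 0.0174, 0.00705 and 0.00704).

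In age 2 replicates 1 to 4, kif5ab (128614555) was measured at 1.44, 17.2, 19.96 and 11.54 CPM, and in the older libraries at 0.613 to 3.34 CPM. Its changes were -2.37 ± 0.63, -2.97 ± 0.66 and -3.03 ± 0.67 (adjusted p = 0.0236, 0.00848 and 0.00922). For kif5c (128608604) the age 2 values were 0.641, 13.6, 10.8 and 11.2 CPM and the older ones 0.699 to 3.42 CPM, with changes of -2.35 ± 0.64, -3.22 ± 0.68 and -2.45 ± 0.65 (adjusted p = 0.0248, 0.00726 and 0.0196). In age 2 replicate 1 the value of kif5c rested on 4 fragments. The age 9 call of kif5c was kept under 12 of the 16 omissions of a library and lost with the replicate number as a block. Of the 6 libraries in which kif5c reached 10 fragments, 3 were of age 2, so the selection rule bears on its fall as well. The sparse kif5bb, at 0.291 to 1.67 CPM at age 2 and 0.765 to 2.03 CPM later, had log2 fold changes of 0.69, 0.53 and 0.71 (adjusted p = 0.328, 0.448 and 0.326).

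Some nerve markers moved with these genes. Of 12 neuron and nerve markers, 10 were in the tables, sncb was at 0 in all libraries, and 3 of the 5 tested were lower at each older age. Their summed level was 83.7 to 84.4 CPM in age 2 replicates 2 to 4, 13.9 CPM in replicate 1, and 12.7 to 23.3 CPM in the older libraries. The neuronal RNA-binding gene elavl4 was at 9.91 to 13.2 CPM, 0.962 CPM and 0.463 to 3.90 CPM in the same groups. In snap25a, snap25b, stmn2a and stmn2b, age 2 replicates 2 to 4 also lay above the older libraries. They overlapped them in gap43, syt1b, nefla and elavl3 (1.02 to 6.35 CPM, with 0.893 to 6.60 CPM in the older libraries). Much of the sum in age 2 replicates 2 to 4 was stmn2b, at 33.6 to 42.5 CPM. The part of nerve cells in the kif5 and kif26 results was not tested, nor was that of Sertoli cells. The summed Sertoli level differed in the same direction, much of it through gsdf, while amh, fshr and cldn11a overlapped the older libraries. Spermatogonial markers, 13 of 14 in the tables and 9 tested, also summed higher in age 2 replicates 2 to 4 (798 to 1237 CPM) than in replicate 1 (376 CPM) and in the older libraries (268 to 580.0 CPM). Much of that sum in replicates 2 to 4 was tdrd1 (388 to 703 CPM) and zbtb16a (270 to 483 CPM). These 2 genes, nanos2 and id4 lay above the older libraries there, gfra1b and piwil1 lay below them, and the rest overlapped them. At each older age 3 of the tested spermatogonial markers were lower, with 0, 1 and 2 higher at ages 4, 7 and 9, and their part was not tested.

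Other cargo kinesins moved less. The vesicle motor kif13bb was 191 CPM in age 2 replicate 1 and 242 to 268 CPM in replicates 2 to 4, with 158 to 262 CPM in the older libraries, and its changes were -0.44, -0.32 and -0.08 (adjusted p = 0.0645, 0.141 and 0.744). The mitochondrial and vesicle motor kif1b was 28.4 to 58.5 CPM at age 2 and 15.7 to 41.4 CPM later, with changes of -0.83, -0.48 and -0.31 (adjusted p = 0.0804, 0.274 and 0.518). With age 2 replicate 1 left out, both passed at age 4 (adjusted p = 0.0213 and 0.0381) and neither at ages 7 and 9. In all, 6 of the 11 genes in the class of cargo and other kinesins fell at each age and 0 rose. Of all genes, 12.0%, 15.9% and 11.5% were lower and 6.66%, 11.5% and 6.82% higher. The median of the class was -2.09, -2.26 and -2.29, and that of all genes -0.05, -0.08 and -0.03. The 6 that fell were the kif26 and kif5 genes named above, without kif5bb, so the class count rests on those families. With age 2 replicate 1 omitted, kif25 also passed at age 9 (-1.29, adjusted p = 0.0494).

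The 4 ciliary kinesins split. The kinesin-2 subunit kif3b, a motor of intraflagellar transport that builds the axoneme, was higher at ages 4 and 7, and kif19 and kif3cb were lower. In age 2 replicates 1 to 4, kif3b stood at 8.34, 3.75, 4.81 and 5.35 CPM. It was 14.8, 9.69, 18.3 and 9.05 CPM at age 4, 14.7, 19.2, 8.94 and 18.3 CPM at age 7, and 9.92, 15.2, 8.74 and 4.57 CPM at age 9. All libraries of ages 4 and 7 lay above all of age 2, and age 9 overlapped age 2 through replicate 4. The change was 1.22 ± 0.39 at age 4, 1.46 ± 0.39 at age 7 and 0.79 ± 0.39 at age 9 (adjusted p = 0.0398, 0.0149 and 0.153), and age 9 passed with age 2 replicate 1 omitted (1.096, adjusted p = 0.0381). At age 4 the call was lost under 9 of the 16 omissions of a library, and in a count of the most abundant of its 19 transcripts alone.

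Unlike kif3b, kif3cb, which in mammals pairs with KIF3A in neurons, was 2.24 CPM in age 2 replicate 1, 5.68 to 7.92 CPM in replicates 2 to 4 and 0.629 to 3.90 CPM later. It passed at age 9 (-1.66 ± 0.52, adjusted p = 0.0374) and not at ages 4 and 7 (-1.31 and -1.20, adjusted p = 0.0746 and 0.0858). The age 9 call was lost under 7 of the 16 omissions of a library, with no filter on low counts, with the replicate number as a block and with 2 ages alone. With age 2 replicate 1 omitted, kif3cb passed at all 3 ages (adjusted p = 0.0166, 0.0267 and 0.00604). Between age 2 replicates 2 to 4 and the older libraries the ratio of kif3cb to kif3b fragments went from 1.06 to 2.11 down to 0.0426 to 0.431, with 0.269 in age 2 replicate 1. The ratio was chosen after its values were seen. In mice the motor Kif19a keeps cilia short by taking microtubule ends apart. Catfish kif19 was 5.93 CPM in age 2 replicate 1, 19.1 to 23.6 CPM in replicates 2 to 4, and 3.67 to 11.6 CPM later. It fell at ages 4 and 7 (-1.49 ± 0.43 and -1.36 ± 0.43, adjusted p = 0.0301 and 0.029), and at age 9 its change was -1.15 ± 0.42 (adjusted p = 0.0679), or -1.38 with age 2 replicate 1 omitted (adjusted p = 0.00517). The kif19 calls at ages 4 and 7 were each kept under 10 of the 16 omissions of a library.

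In male germ cells of mice Kif17 moves a coactivator of spermatid genes between nucleus and cytoplasm. Catfish kif17 was 33.3 CPM in age 2 replicate 1 and 9.17, 6.12 and 5.02 CPM in replicates 2 to 4. At ages 4, 7 and 9 replicates 1 to 4 held 45.3, 26.1, 62.3 and 10.6 CPM, then 46.5, 32.8, 10.6 and 63.6 CPM, then 38.98, 43.6, 21.3 and 19.1 CPM. The older testes spread widely among themselves, and 3 of the age 2 testes lay below them all. With all libraries it did not pass (changes of 1.43, 1.52 and 1.20, adjusted p = 0.12, 0.0887 and 0.193). Without age 2 replicate 1 it was higher at all 3 ages, by 2.48, 2.59 and 2.22 (adjusted p = 0.00474, 0.00335 and 0.00952). The summed level of sperm markers was also higher in age 2 replicate 1 than in replicates 2 to 4, as given above. The part of sperm cells in the kif17 result was not tested.

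None of the 5 spindle and cytokinesis kinesins passed edgeR's test against age 2 at any age, and none had an unadjusted p under 0.05. DESeq2 also called 0 of 5 at each age, and limma voom with quality weights, which gives outlying libraries less weight, called 4, 3 and 3 higher. The shares of all genes called by DESeq2 and by voom are not given here. Those counts are therefore not a result about the spindle kinesins. By edgeR, 4, 3 and 3 were higher as well when age 2 replicate 1 was left out, against 23.3%, 24.2% and 21.7% of all genes. The kinesin kif18a, which damps chromosome movement on the spindle, was 208 CPM in age 2 replicate 1 and 53.7, 38.2 and 39.3 CPM in replicates 2 to 4. Replicates 1 to 4 held 171, 132, 129 and 156 CPM at age 4, 141, 161, 123 and 117 CPM at age 7, and 133, 123, 154 and 142 CPM at age 9. The age 2 testes therefore took both ends of the range of 16, with the highest value in replicate 1 and the 3 lowest in the others. The change was 0.80 ± 0.41, 0.68 ± 0.41 and 0.70 ± 0.41 with all libraries (adjusted p = 0.168, 0.223 and 0.23), and 1.82 ± 0.19, 1.72 ± 0.19 and 1.71 ± 0.19 without age 2 replicate 1 (adjusted p = 6.36e-06, 7.71e-06 and 1.39e-05). The smaller SE and p-values follow from leaving out the library that stood apart, so they are no test of age.

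The cytokinesis motor kif20a was 182, 50.2, 47.2 and 58.0 CPM in age 2 replicates 1 to 4. It was 156, 126, 118 and 122 CPM at age 4, 100.4, 122, 105 and 114 CPM at age 7, and 91.8, 103, 111 and 91.9 CPM at age 9. Again age 2 replicate 1 was the highest of all and the other age 2 libraries the lowest. Its changes were 0.63, 0.39 and 0.24 (adjusted p = 0.179, 0.394 and 0.638), and without age 2 replicate 1 they were 1.41, 1.18 and 0.99 (adjusted p = 1.71e-05, 4.66e-05 and 0.000276). The chromosome-bound kif4 was 98.3 CPM in age 2 replicate 1, 25.1 to 34.4 CPM in replicates 2 to 4 and 37.4 to 61.4 CPM later. Its changes of 0.26, 0.10 and -0.13 became 0.99, 0.85 and 0.58 without that library (adjusted p = 0.000532, 0.00145 and 0.019).

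The cytokinesis gene kif20ba was 38.3 CPM in age 2 replicate 1, 9.76 to 16.7 CPM in replicates 2 to 4 and 14.5 to 45.9 CPM later. Its changes were 0.79, 0.30 and 0.13, and without that library it passed at age 4 only (1.39, adjusted p = 0.00707). By contrast kif15, which helps to keep spindle poles apart, was 37.0 CPM in age 2 replicate 1, 13.3 to 22.6 CPM in replicates 2 to 4 and 10.3 to 38.9 CPM later, and passed in neither fit. Summed over the 5 genes, the level was 563 CPM in age 2 replicate 1, 133 to 171 CPM in replicates 2 to 4 and 303 to 446 CPM in the older testes. Of 14 markers of dividing cells, 12 were in the tables, and ccnb1, ccnb2 and aurkb were listed at 0. Their summed level was 2518 CPM, 716 to 994 CPM and 1257 to 2390 CPM in the same 3 groups. The part of dividing cells in the kinesin levels was not tested.

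**Figure D4:**
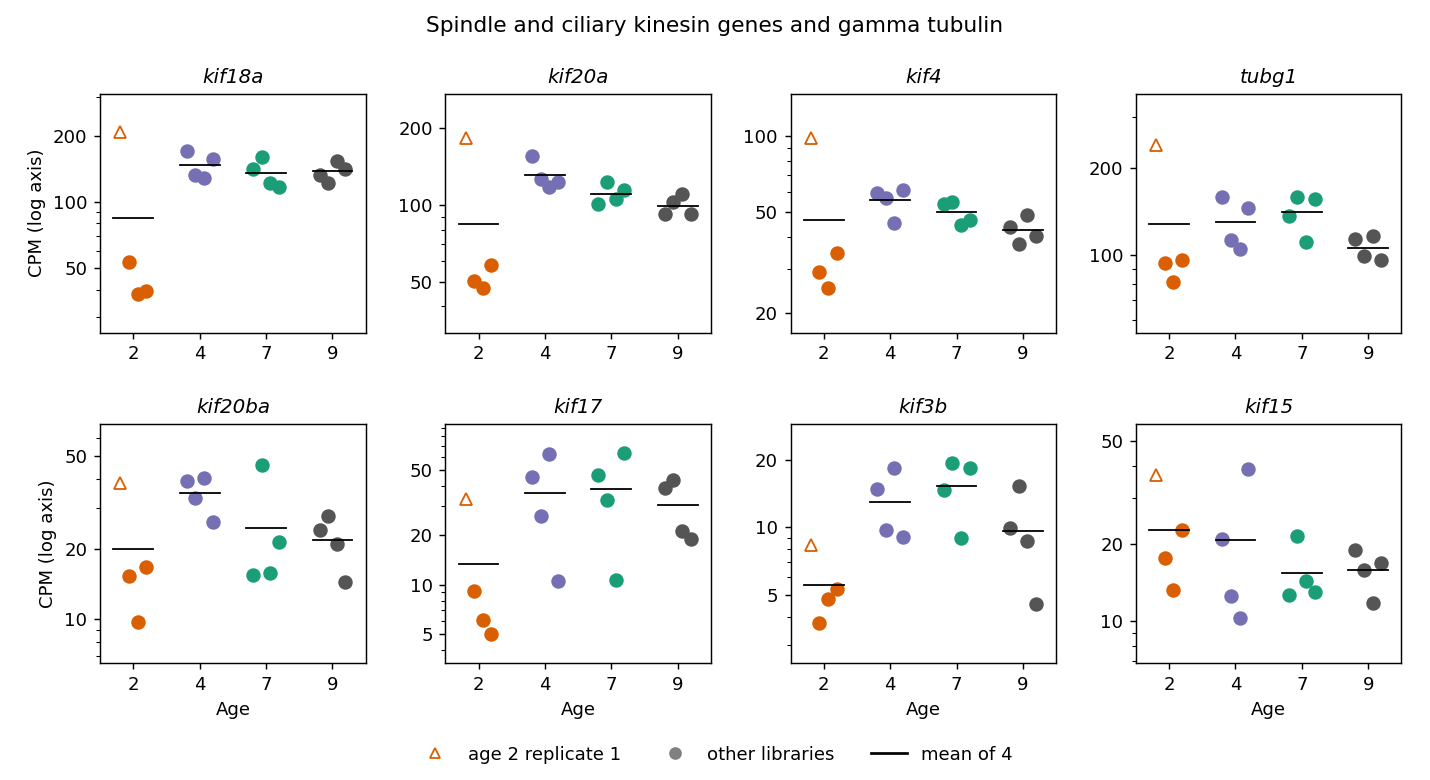
CPM on a log axis in each library, by age, for the spindle kinesins kif18a, kif20a, kif4, kif20ba and kif15, the ciliary kinesins kif17 and kif3b, and gamma tubulin tubg1. Points are libraries, the open triangle is age 2 replicate 1 and bars are means of 4. In kif18a, kif20a, kif4 and tubg1 the triangle is the highest point of all and the other age 2 libraries are the lowest.

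Among the alpha tubulins only tuba8l3 passed, and only at age 4. The fish gene tuba8l3 was 64.6, 78.7, 112 and 166 CPM in age 2 replicates 1 to 4, and at age 4 it was 51.5 to 55.6 CPM, below all of age 2. It fell at age 4 (-0.97 ± 0.30, adjusted p = 0.0362), a call kept under 9 of the 16 omissions of a library. At age 7 it was 50.1 to 104 CPM and at age 9 69.1 to 123 CPM, and the changes of -0.56 and -0.29 did not pass (adjusted p = 0.159 and 0.489). The other two, tuba8l2 (29.3 to 80.4 CPM over the 16 libraries) and tuba5 (3.32 to 6.70 CPM), passed in no comparison, with changes between -0.49 and 0.11.

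Of the 7 beta tubulins, tubb2 fell at all 3 ages, tubb4bl at ages 4 and 7, and tubb4b at age 9. In age 2 replicates 1 to 4, tubb2 (128610620) was 1.28, 12.6, 5.54 and 6.19 CPM. It was 1.26, 0.510, 1.52 and 2.37 CPM at age 4, 0.5005, 0.699, 0.154 and 0.691 CPM at age 7, and 0.684, 0.550, 0.767 and 1.14 CPM at age 9, where most values equal a few fragments. All age 2 libraries lay above those of ages 7 and 9. Only age 2 replicates 2 to 4 (91, 38 and 37 fragments) and age 4 replicate 4 (17 fragments) reached the 10 fragments of the selection rule, so tubb2 was kept largely through the age at which it is high, and its fall is in part set by that rule. The change was -2.17 ± 0.59, -3.62 ± 0.66 and -3.00 ± 0.63 (adjusted p = 0.0245, 0.00539 and 0.00762). In those age 2 libraries tubb4bl was 12.2, 22.9, 17.8 and 34.6 CPM, and later 3.56 to 13.7 CPM, with changes of -1.57 ± 0.42, -1.84 ± 0.43 and -1.20 ± 0.42 (adjusted p = 0.024, 0.00925 and 0.0548). At age 9 it passed with age 2 replicate 1 omitted (-1.36, adjusted p = 0.0142).

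Most fragments counted on beta tubulin genes were from tubb2b and tubb4b. For tubb2b, replicates 1 to 4 held 536, 284, 212 and 421 CPM at age 2, 350.3, 383, 242 and 581 CPM at age 4, 366, 416, 409 and 276 CPM at age 7, and 314, 234, 301 and 377 CPM at age 9. The 4 ages overlapped, and its changes were 0.10, 0.01 and -0.25 (adjusted p = 0.8293, 0.975 and 0.572). In mammals TUBB4B is the main beta tubulin of cilia. Catfish tubb4b was 311, 235, 161 and 282 CPM at age 2, 169, 189, 116 and 329 CPM at age 4, 165, 160.0, 141 and 134 CPM at age 7, and 134, 89.3, 124 and 181 CPM at age 9. Age 9 lay mostly below age 2, with replicate 4 inside its range, and the change of -0.90 ± 0.29 passed (adjusted p = 0.0433), while those at ages 4 and 7 were -0.30 and -0.72 (adjusted p = 0.466 and 0.0754). The age 9 call was lost when any of 12 libraries was left out, age 2 replicate 1 among them (-0.73, adjusted p = 0.0622).

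Set against each other, the 2 genes separated age 2 from the rest. The ratio of tubb4b to tubb2b fragments was 0.580, 0.826, 0.758 and 0.670 in age 2 replicates 1 to 4. It was 0.480 to 0.567 at age 4, 0.345 to 0.485 at age 7 and 0.382 to 0.481 at age 9. All 4 age 2 testes, replicate 1 included, lay above all 12 older ones, which no single member did. The ratio was chosen after its values were seen and carries no test. Beta tubulins are closely alike as proteins, and how far the catfish transcripts differ was not examined. Fragments set aside as ambiguous were not counted, so the share of each gene that was measured is uncertain.

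**Figure D5:**
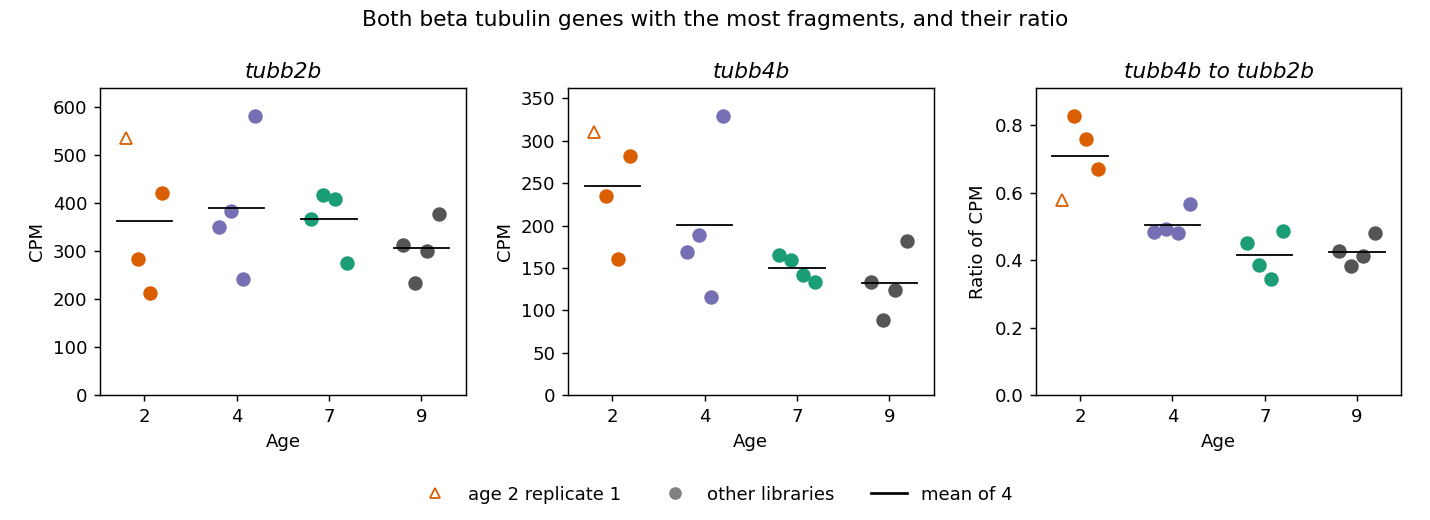
CPM of tubb2b (left) and tubb4b (centre) and the ratio of tubb4b to tubb2b (right) in each library, by age. Points are libraries, the open triangle is age 2 replicate 1 and bars are means of 4. In the right panel the lowest age 2 point is at 0.580 and the highest older point at 0.567.

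The remaining beta tubulins passed in no comparison with all libraries. Over the 16 libraries tubb5 ranged from 10.7 to 49.5 CPM and tubb6 from 23.1 to 102 CPM, each with its highest value in age 7 replicate 3. For tubb1, which in mammals forms the microtubule coil of platelets, age 2 held 2.48 to 10.1 CPM and age 9 7.35 to 12.3 CPM. It passed at age 9 without age 2 replicate 1 (1.08, adjusted p = 0.0313).

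Gamma tubulin resembled the spindle kinesins. The gene tubg1 was 241, 94.2, 81.2 and 96.1 CPM in age 2 replicates 1 to 4, 105 to 159 CPM at age 4, 111 to 159 CPM at age 7 and 96.3 to 116 CPM at age 9. Its changes were 0.03, 0.14 and -0.27 (adjusted p = 0.951, 0.742 and 0.529). Without age 2 replicate 1 they were 0.60, 0.73 and 0.28, past the threshold at ages 4 and 7 (adjusted p = 0.0163 and 0.00521) and not at age 9 (adjusted p = 0.239). The ring proteins were mixed. At age 7 tubgcp6 fell by 0.62 ± 0.20 on the log2 scale (adjusted p = 0.0326). Its age 2 values were 176 CPM in replicate 1 and 96.9 to 125 CPM in the others, against 75.6 to 102 CPM at age 7, and without replicate 1 the change was -0.34 (adjusted p = 0.135). The tubgcp6 call was kept under 8 of the 16 omissions of a library. The sparse tubgcp3, at 0.334 to 1.92 CPM at age 2 and 1.02 to 3.43 CPM later, had changes of 1.13, 0.76 and 1.32 (adjusted p = 0.119, 0.278 and 0.0799). Without age 2 replicate 1, 23.3%, 24.2% and 21.7% of all genes were higher at ages 4, 7 and 9, and 22.3%, 23.6% and 20.6% lower. In that fit 4 of the 5 genes in this class were higher at age 4, 3 at age 7 and 2 at age 9, with 0 lower. Beside tubg1 these were tubgcp5 at all 3 ages (1.69, 2.40 and 1.92, adjusted p = 0.01, 0.000857 and 0.00524), tubgcp4 at ages 4 and 7 (0.54 and 0.47, adjusted p = 0.0255 and 0.0464) and tubgcp3 at ages 4 and 9 (1.56 and 1.73, adjusted p = 0.0291 and 0.0189).

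Other microtubule genes that do not carry the family symbols were read from a list of 96, of which 83 were in the tables and 50 were tested. At age 4, 6 rose and 3 fell, at age 7 13 rose and 5 fell, and at age 9 3 rose and 3 fell. These were 18% of the list at age 4, 36% at age 7 and 12% at age 9, against 18.6%, 27.3% and 18.4% of all genes, so that ages 4 and 9 were at or below the background. Their median change was 0.44, 0.37 and 0.16, against -0.05, -0.08 and -0.03 for all genes. The tubulin-binding gene tppp3 was 0.167 to 1.11 CPM in age 2 replicates 2 to 4, 3.85 CPM in replicate 1 and 5.15 to 20.4 CPM later. It rose by 2.63 ± 0.63, 3.32 ± 0.64 and 2.95 ± 0.64 (adjusted p = 0.0181, 0.00577 and 0.00864). A katanin-like gene, katnal2, of a family that severs microtubules, rose by 2.60, 2.78 and 2.59 (adjusted p = 0.0211, 0.0104 and 0.0172), and the plus-end linker clip1a by 1.49 and 1.18 at ages 4 and 7 (adjusted p = 0.0201 and 0.0299).

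Falls in that list included the neuronal tubulin-binding gene stmn2b, at 33.6 to 42.5 CPM in age 2 replicates 2 to 4, 4.97 CPM in replicate 1 and 2.03 to 8.38 CPM later (-2.57, -2.67 and -2.74, adjusted p = 0.0166, 0.0081 and 0.00861). It also stands in the nerve list. The tau gene maptb fell at ages 7 and 9 (-1.35 and -1.36, adjusted p = 0.0113 and 0.0142), as did map7a, whose product recruits kinesin-1 to microtubules (-1.29 and -1.47, adjusted p = 0.0194 and 0.0159). The severing enzyme fign fell at ages 4 and 7 (-1.42 and -1.92, adjusted p = 0.0337 and 0.00889), and the plus-end binding gene mapre1a at age 7 (-1.75, adjusted p = 0.00987). In the fit without age 2 replicate 1, where 51 of the list were tested, 23 rose and 7 fell at age 4, 23 and 7 at age 7, and 20 and 5 at age 9, against 45.7%, 47.8% and 42.3% of all genes called.

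Between the older ages 0 of the 35 members passed in any of the 3 comparisons by edgeR, by DESeq2 or by limma voom. Of all genes, 0.0125% passed at age 7 against 4, 0.00% at age 9 against 4 and 0.00% at age 9 against 7. At an unadjusted p under 0.05 there were 2, 3 and 0 of the 35 members, against 623, 1505 and 1131 of the 15979 genes tested. The largest change among those members was in kif25, named after its values were seen. It was -1.48 ± 0.47 for age 7 against 4 and -1.67 ± 0.47 for age 9 against 4 (adjusted p = 0.994 and 0.339). Levels of kif25 were 7.70, 14.3, 10.3 and 2.65 CPM in age 4 replicates 1 to 4, 1.23 to 5.01 CPM at age 7 and 1.99 to 3.67 CPM at age 9. Thus 3 of the age 4 testes were above all older ones and replicate 4 was among them. Groups without overlap were kif5c for age 7 against 4 (lower, as were 1.71% of all genes, with 1.15% higher), tuba8l3 (higher, 5.29%) and kif20a (lower, 3.25%) for age 9 against 4, and kif26aa for age 9 against 7 (higher, 3.59%, with 2.61% lower).

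Among the 12 older testes, a few held many of the extreme values. Age 4 replicate 4 held the highest older value of 10 of the 35 members, among them tubb2b, tubb4b, tubb4bl, tuba8l2 and kif4, and the lowest of 1, kif17. Age 9 replicate 2 held the lowest value of 8, among them tubb2b, tubb4b, tubb6, kif4 and tubgcp6, and the highest of 1. The share of all genes with an extreme in these libraries is not given here, so these counts are not a result about the members. Age 4 replicate 4 also had the highest older score on principal component 1 (7.01). The steadiest member over the 12 was kif18a, with a coefficient of variation of 12.2%, followed by tubgcp4 (14.0%) and tubgcp6 (14.1%). Spread was widest in kif25 (80.6%) and kif1aa (69.4%), both under 15 CPM, and among better covered genes kif17 reached 51.6%.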

How the data were processed

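Total RNA of 16 testes was sequenced from NEBNext Ultra II libraries, per the labels' protocols. The submitters' processing notes list, without saying what each did, the aligner STAR 2.7.5, the counter HTSeq 0.11.1, Trimmomatic 0.39 for trimming, edgeR 4.4.2, and the quality tools MultiQC 1.10.1 and FastQC 0.11.9. For settings, strandedness and genome build, nothing was stated in the labels, so reads of overlapping antisense genes cannot be told apart. The deposited values are raw fragment counts for 50072 transcripts a library, with 5 summary lines that hold 65.2% to 76.2% of fragments and were left out. Counts were summed per symbol, and gene IDs were matched by transcript accession to a RefSeq table of assembly Billie_1.0. No library repeated another.

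Genes were kept by filterByExpr (minimum count 10, total 15), which left 15979, all 35 members included. Tests used edgeR 4.0.16 (TMM, robust quasi-likelihood) in R 4.3.3 on 1 model by age, two-sided, with Benjamini-Hochberg adjustment over all genes tested at 0.05; SE is the log2 fold change divided by the root of F. The spread was pooled over ages. The alternatives were DESeq2 1.42.0, its size factors, limma 3.58.1 voom with quality weights, other count filters, the most-counted transcript, the replicate number as a block, 2 ages alone and each library left out. Counts were also simulated for ages 4, 7 and 9 against age 2 (15673, 15668 and 15612 genes). Of 67 genes changed 2-fold in each, 17.9%, 11.9% and 10.4% were recovered. Of 67 changed 4-fold, 67.2%, 62.7% and 61.2% were. Far fewer genes were changed there than were called in the data, so these shares need not hold for the data.

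Members, role classes and lists were chosen with earlier results of these data known. Members were named where they passed with 1 of the 8 smallest p-values in a direction against age 2, or had 1 of the 2 highest levels or smallest p-values of their class. Of the list of other microtubule genes, the 4 smallest p-values of each comparison were named. Members outside this rule are given by their values to complete a class. No sequences or coordinates were used here. Figures used python 3.11.15 and matplotlib 3.10.9. The list of meiotic markers is not reported here.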

Additional observations from a re-analysis of the deposited data

Results flagged for a closer look

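Among 100 sets of 4 libraries (25 named members at 4 ages), 6 held a library far from the other 3 of its age by Dixon's test at the 95% level, which chance does in about 1 of 20 sets. Age 2 replicate 1 was the high library in 4 of them. It held 33.3 CPM of kif17 against 5.02 to 9.17 CPM in the other age 2 testes, 208 CPM of kif18a against 38.2 to 53.7 CPM, 182 CPM of kif20a against 47.2 to 58.0 CPM, and 241 CPM of tubg1 against 81.2 to 96.1 CPM. Age 4 replicate 4 held 9.89 CPM of kif5aa, and the other age 4 testes 2.37 to 2.68 CPM. Age 9 replicate 2 held 11.2 CPM of kif26aa, and the other age 9 testes 5.37 to 6.33 CPM.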

How the results depend on the processing

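The counts of members against age 2 depended on which libraries and which model were used. Apart from the fit without age 2 replicate 1, the share of all genes under these settings is not given here. The shifts in the counts are therefore not a result about the members. With limma voom and quality weights, 23, 22 and 20 members passed at ages 4, 7 and 9, against 11, 11 and 9. Fitted on 2 ages alone, 0, 5 and 4 passed; that fit also repeats the filter and the scaling, and left kif5c and tubb2 untested at age 7 and tubb2 at age 9. With 1 library left out the counts ran from 0 to 23 at age 4, from 8 to 18 at age 7 and from 6 to 19 at age 9, the highest each time without age 2 replicate 1. With the replicate number as a block, 11, 11 and 7 passed. The labels state no pairing of same-numbered libraries. Correlations of their deviations lay between -0.22 and 0.41, which cannot exclude a pairing. The other filters, size factors, DESeq2 and the most-counted transcript kept each count within 1.5 times, and between the older ages 0 passed under every alternative run. Of 1793 values of single named genes under alternatives, 1618 stayed on their side of the threshold, 120 lost and 55 gained the call, and 0 reversed. The kif26 genes, kif5aa, kif5ab and tubb2 kept their calls at ages 7 and 9 under all 16 omissions. For tubb2 this adds little, since it was kept as a member largely through age 2, where it is high. At age 4 the call was kept under 15 omissions for kif26aa and 14 for kif26ba and kif26bb. It was kept under 11 for kif5aa and kif5ab and 10 for tubb2. In the simulated counts most 2-fold changes were missed, but far fewer genes were changed there than were called here. How many such changes were missed in these data is therefore not known. Changes under 2-fold did pass in tuba8l3 at age 4 (1.95-fold), tubgcp6 at age 7 (1.53-fold) and tubb4b at age 9 (1.87-fold).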
